A study of Mus musculus with 12 samples.

Results

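Glycogen is the branched glucose polymer that cells build when glucose is plentiful and break down when it is needed. The genes followed here were Ugp2, Gbe1 and Ppp1r3b on the synthesis side and Pygm on the breakdown side, and the measurement was a change in N6-methyladenosine (m6A), a methyl group that cells place on some adenosines of their mRNA, in the inguinal white adipose tissue (iWAT) of cold-exposed mice. The members were chosen by gene name, with the direction and fold of their sites already known, and every row of both deposited lists of differential m6A sites that named one of these 4 genes was taken. That gave 5 sites in 4 genes, of 739 sites in 574 genes in all.

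The tissue came from C57BL/6 mice per the labels, given in the methods of the study as male C57BL/6J mice 8 weeks old, housed at 4 °C (cold) or, for the thermoneutral group, at 30 °C, in both cases over 7 days. An anti-m6A polyclonal antibody was used to enrich methylated mRNA fragments (m6A IP), and fragments without this step served as input, in 3 libraries of each kind at each temperature. The source field of the labels reads adipocytes while the tissue field names the whole fat pad, and the study's own methods describe tissue. Only finished comparison rows were analysed here, so the values and depth of each library and the spread between animals are unknown, and the folds below stand without SD or n. Each fold is a linear ratio in the authors' deposited list, cold over thermoneutral for the sites listed as higher. Whether the inputs entered that ratio is not given in the sources used here, so a change in transcript amount and a change in methylation cannot be told apart in it. In a whole fat pad, fewer cells of a type and less RNA per cell cannot be told apart either. The identity of the tissue could not be checked against levels of its marker genes, because a gene appears in these lists only when it holds a differential site.

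Synthesis of glycogen starts from UDP-glucose, which UDP-glucose pyrophosphorylase (Ugp2) makes from glucose-1-phosphate and UTP. Glycogen synthase (Gys1, Gys2) then lengthens chains primed by glycogenin (Gyg), and the branching enzyme Gbe1 moves chain ends to make branch points. Ppp1r3b is a targeting subunit that brings protein phosphatase 1 to glycogen, where removal of phosphate switches glycogen synthase on and glycogen phosphorylase off. Pygm is the muscle form of glycogen phosphorylase, which releases glucose-1-phosphate from chain ends, and its loss in humans causes McArdle disease. Adipocytes hold a small glycogen store that is turned over with feeding and adrenergic stimulation.

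Antibody-enriched regions are wider than the methylated base, so the sequences that follow show the letters around a motif or an edge inside each site rather than a mapped methylated adenosine. The m6A methyltransferase prefers the consensus DRACH, in which R stands for A or G, D for any base but C and H for any base but G, and GGAC followed by A, C or T is a common form of it. Sequences are from the RefSeq copy of GRCm38 (the assembly behind mm10), printed along the transcribed strand, and capitals mark the GGAC nearest the middle of a site or, where a site had no GGAC, the nearest DRACH. They are shown because 2 of the sites hold no GGAC. Both are on the synthesis side, which holds 4 of the 5 sites and also the site with the most GGAC per kb.
Ugp2, 3′ UTR, chr11:21321765-21321789, minus strand: caatattactTAACCtcagaatcgg
Gbe1, exon 14 site, chr16:70528982-70529005, plus strand: taccgagtcgGGACagcaacacca
Gbe1, last exon site, 3′ UTR, chr16:70569486-70569510, plus strand: atactgtattAAACAcatagcacta
Ppp1r3b, 3′ UTR, chr8:35385557-35385580, plus strand: tacagcactgGGACaaggtgggac
Pygm, coding sequence, chr19:6384651-6384674, plus strand: acactgtccgGGACcacctcgtgg
The GGAC of the Gbe1 exon 14, Ppp1r3b and Pygm stretches is in each case also a DRACH.

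All 5 sites were listed as higher in cold and 0 as lower, beside 40.7% of all 739 sites that were higher. All 4 genes had higher sites only, beside 36.1% of the 574 genes. The genes were picked with these directions in view, so the counts describe the members and nothing is read from them. On the synthesis side the folds were 4.85 for Ugp2, 8.67 for Ppp1r3b, and 15.3 and 32.2 for the pair of Gbe1 sites. The Pygm site had a fold of 136, which is 4.21 times the highest synthesis fold. No replicate spread exists for any of these folds, so whether neighbours in this order differ beyond error was not tested.

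**Figure D1:**
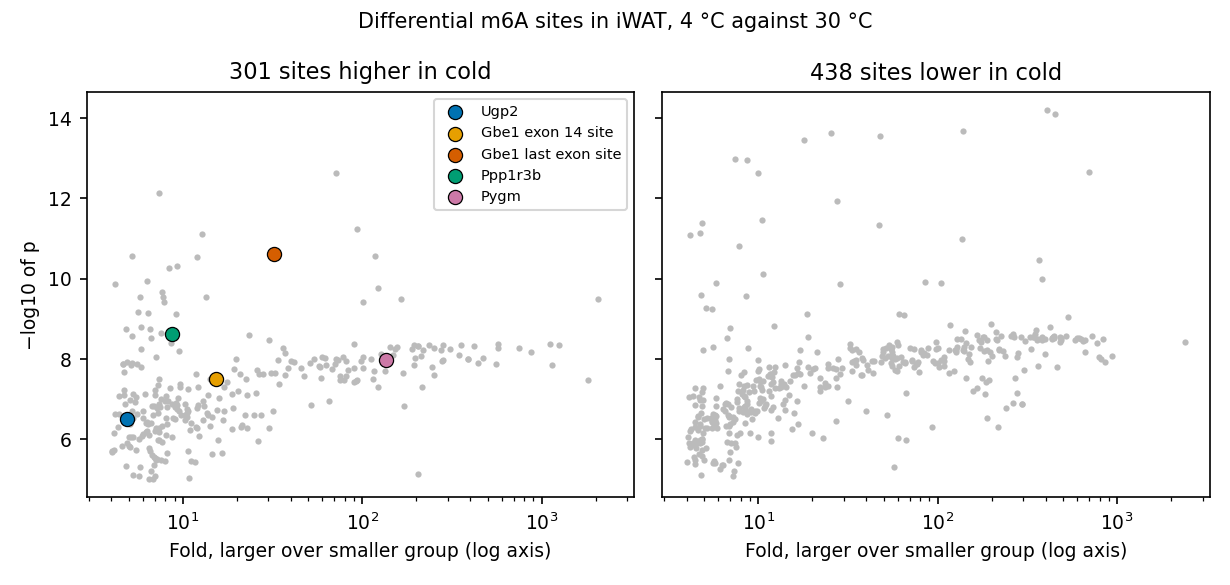
Fold (log axis) against −log10 of the p in the authors' deposited lists for each differential m6A site, with sites higher in cold on the left and sites lower in cold on the right. The 5 glycogen gene sites are coloured and all stand in the left panel, with folds of 4.85 to 136.

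The Ugp2 site lay close to the floor of the list, which held no higher site with a fold under 4.05. Its fold of 4.85 (log2 2.28) ranked 282 of 301 higher sites, with a deposited false discovery rate (FDR) of 2.86e-06. In rank by gene, with the strongest site of each of 223 genes, Ugp2 stood at 207, between Hrc, a calcium-binding protein of the sarcoplasmic reticulum, at 4.88 and Dopey2 at 4.84. Ugp2 was the only member that left the list when a fold of at least 8 or a p of at most 1e-07 was asked for. Either threshold kept 4 of the 5 sites.

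Gbe1 was the only member with more than 1 site. Its last exon site had a fold of 32.2 (log2 5.01) and an FDR of 1.08e-08, and its p of 2.45e-11 ranked 6 of 301 among higher sites, the best of the 5 sites. The fold itself ranked 96 of 301. By gene, Gbe1 ranked 83 of 223, between Kmt2c, a histone H3 lysine methyltransferase, at 32.7 and Ucp3, a mitochondrial carrier related to Ucp1, at 32.1. The exon 14 site had a fold of 15.3 (log2 3.93), an FDR of 3.77e-07 and rank 131. The last exon site thus had 2.11 times the fold of the exon 14 site, with 40141 bases of genome between them.

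Ppp1r3b had a fold of 8.67 (log2 3.12), below the median of 11.8 over all higher sites, and an FDR of 1.45e-07. It ranked 182 in fold but 31 in p among the 301 higher sites. By gene it stood at 140 of 223, between Tspan18, a tetraspanin membrane protein, at 8.79 and Slc35g1, a solute carrier, at 8.64. Its site was 2659 bp long, the longest of all 739, beside a second longest of 2293 bp, and 6.66 times the median length of 399 bp.

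Pygm had a fold of 136 (log2 7.08) and an FDR of 1.85e-07, with rank 44 of 301 in fold and 80 in p. The upper quartile of higher sites began at 62.7, and the highest fold was 2053. By gene Pygm ranked 43 of 223, between Crebzf, a leucine zipper transcription factor, at 144 and Atrnl1, an attractin-like membrane protein, at 126. At 300 bp its site had the shortest length found in the lists, shared by 3 sites. Of the 739 folds, 109 were written with at most 1 decimal place, and none of the 5 folds here was.

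The place of each site in its transcript was not used in choosing the genes. On the coding transcript with the longest coding sequence, the middle of the site fell in the 3′ UTR for Ugp2, Ppp1r3b and the Gbe1 last exon site, in an intron for the Gbe1 exon 14 site and in coding sequence for Pygm. Over all sites with their midpoint in an exon, 62.3% were in the 3′ UTR, 35.7% in the coding sequence and 1.99% in the 5′ UTR.

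The Ugp2 site ran over chr11:21321502-21322120 on the minus strand, 619 bp in exon 10 of 10 of the 2683-base Ugp2 transcript, and took up 62.4% of that exon. It held the last 99 coding bases and 520 bases (84.0%) of 3′ UTR, with its midpoint 211 bases after the stop codon. Ppp1r3b was built alike, with its site at chr8:35384222-35386880 on the plus strand in exon 3 of 3 of Ppp1r3b-204, of which it took up 64.1%. It held 642 coding bases and 2017 bases (75.9%) of 3′ UTR, and its midpoint was 688 bases after the stop codon. Both sites therefore covered a stop codon, as did 27.1% of the 727 sites that could be placed on a coding transcript. The letters at these stop codons, in capitals, are printed because they mark the passage from coding sequence to 3′ UTR inside each site.
Ugp2 stop codon, chr11:21322012-21322034, minus strand: cctggatcacTGAaataagcact
Ppp1r3b stop codon, chr8:35384851-35384873, plus strand: gccctactacTAGtgactgcagg

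The Pygm site sat at the other end of its transcript. It ran over chr19:6384422-6384721 on the plus strand, in exon 1 of 20 of Pygm-201, and ended with the last base of that exon, of which it took up 92.9%. It held 57 bases of 5′ UTR and 243 coding bases (81%), and its midpoint lay 92 bases after the start of the start codon. Both coding transcripts of Pygm gave the same split. Of the 727 placed sites, 28 (3.85%) lay on a start codon, and 43 (5.91%) touched an exon 1, against 509 (70.0%) that touched a last exon. No synthesis gene site touched a start codon. The start codon is printed in capitals because none of the other 4 sites holds one.
Pygm start codon, chr19:6384469-6384491, plus strand: tctcacagccATGtccaggcctc

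Pygm belongs to a family of closely related phosphorylases, and reads were not examined here, so whether any from the liver form Pygl or the brain form Pygb were placed on it was not tested. The longest exact run that the Pygm site shared with the transcripts of the other two was 11 bases for Pygl and 14 bases for Pygb. Pygl and Pygb themselves had no site in the lists.

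**Figure D2:**
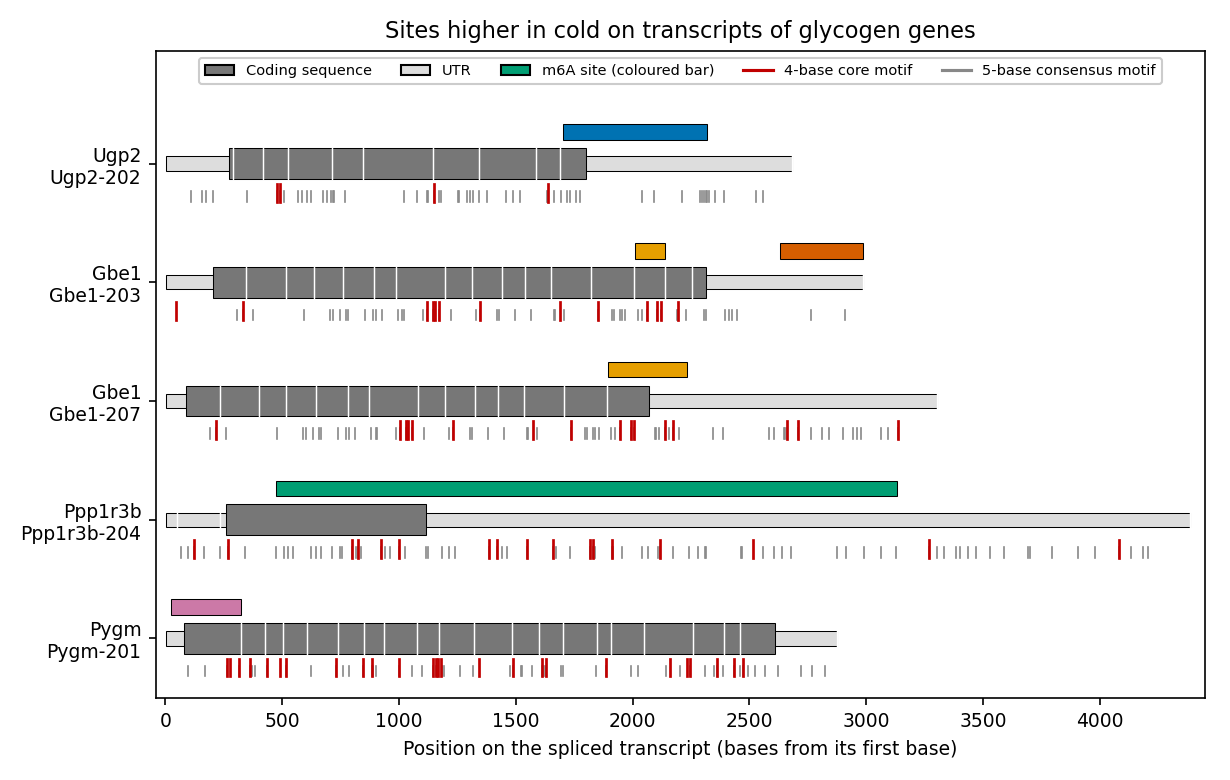
Spliced transcripts of the 4 glycogen genes to scale in bases, with coding sequence as thick and UTR as thin boxes, exon edges as white lines, sites higher in cold as coloured bars above and motifs as ticks below (GGAC in red, DRACH in grey). The Pygm bar lies at the 5′ end, the Ugp2 and Ppp1r3b bars cross the stop codon, and Gbe1 is drawn on 2 transcripts, since only 131 of the 341 bases of its exon 14 site are exonic on Gbe1-203.

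The 2 Gbe1 sites fell on the annotated transcripts of the gene in different ways. The last exon site ran over chr16:70569362-70569720 on the plus strand, in exon 16 of 16 of Gbe1-203, with 355 of its 359 bases in the 3′ UTR and its midpoint 496 bases after the stop codon. The remaining 4 bases lay past the end of that transcript in GENCODE, and the site ended on exactly the same base as the RefSeq transcript NM_028803. An AATAAA, the letters of the common poly(A) signal, stood inside the site close to this end. It is printed because it marks the 3′ end of Gbe1-203, called the long transcript here for its longer coding sequence.
Gbe1 long transcript, AATAAA, chr16:70569681-70569706, plus strand: cactttcatcAATAAAaagaaaaatg
Of the placed sites, 77 (10.6%) covered the last base of their transcript.

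The exon 14 site ran over chr16:70528880-70529220 on the plus strand and started on the start of exon 14. On the long transcript this exon has 131 bases, and the other 210 bases (61.6%) of the site would be intron. The row in the authors' deposited list names Gbe1-207. This transcript has a shorter coding sequence than Gbe1-203, but more bases in all (3303 against 2984). Its exon 14 is its last, with 1411 bases, and runs on through the start of that intron. On Gbe1-207 the site held 180 coding bases, stop codon included, and 161 bases (47.2%) of 3′ UTR, and ended 1070 bases before the end of the transcript. Gbe1-207 encodes 660 codons, against 702 on Gbe1-203, with 49 coding bases, stop codon included, after the shared part of exon 14. The retained-intron transcript Gbe1-204 also holds all 341 bases of the site. Which of these RNAs carried the signal cannot be told from the lists. Of the 727 placed sites, 26 (3.58%) had intron bases and also touched the last exon of another coding transcript of the same gene. Whether those intron bases lay in that last exon was not checked for each site.

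The intron after exon 14 of the long transcript has unusual ends. Most introns start with GT and end with AG, whereas this one starts with AT and ends with AC, a pair found mainly among introns removed by the minor spliceosome. The edges are printed because the site runs across the first of them, with the intron's outermost bases in capitals, and the stop codon that Gbe1-207 reaches past this edge is shown with them.
Gbe1 intron start, chr16:70529001-70529022, plus strand: caccagggaaATatccttttct
Gbe1 intron end, chr16:70561012-70561033, plus strand: cggaagctatACgttcaaaatt
Gbe1-207 stop codon, chr16:70529047-70529069, plus strand: atgtaatattTAAtagtataagc

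Motifs were counted on the transcribed strand, and the rest of the same transcript and all sites of both lists stand beside each count. The 5 sites held 21 GGAC in all, 13 of them in the long Ppp1r3b site, 5 in the Gbe1 exon 14 site, 3 in the Pygm site and 0 in the Ugp2 and Gbe1 last exon sites. Over the 731 sites whose gene was found in GENCODE, 83.7% held a GGAC, with a median of 3.45 per kb, and 119 (16.3%) held none. Among sites within 10% of their own length, 92.1% of 89 held a GGAC for Ugp2 and 76.0% of 263 for the Gbe1 last exon site.

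The pair of Gbe1 sites stood near opposite ends of the range. The exon 14 site had 14.7 GGAC per kb, more than 97.4% of all sites, and 35.2 DRACH per kb, more than 95.5%. Of its 5 GGAC, 3 were in the 131 bases shared by both transcripts and 2 in the 210 bases beyond. The last exon site had only 2 DRACH, or 5.57 per kb, and just 3 of 731 sites had fewer per kb. The rest of the long transcript held 4.00 GGAC and 18.4 DRACH per kb. The last exon site was also AT-rich, with a GC content of 30.6%, against a median of 48.3% over all sites, and 0.958% of sites were lower. The site with the higher fold and the lower p thus held fewer motifs of both kinds than the other.

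The Ugp2 site held 11 DRACH, or 17.8 per kb, against 21.8 per kb in the rest of its transcript, and all 4 GGAC of the transcript lay outside the site. Its GC content of 34.6% was above that of 3.15% of sites. Ppp1r3b had 4.89 GGAC per kb inside its site, against 2.32 per kb outside it, and 21.8 DRACH per kb, against 14.5 per kb. Of its 13 GGAC, 4 started in coding sequence and 9 in the 3′ UTR. Pygm had 10 GGAC per kb in its site, against 8.94 per kb over the rest of a transcript with 23 more, and 13.3 DRACH per kb, from 4 inside the site and 54 in the rest. Its 3 GGAC were all in coding sequence, and its GC content was 54%.

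**Figure D3:**
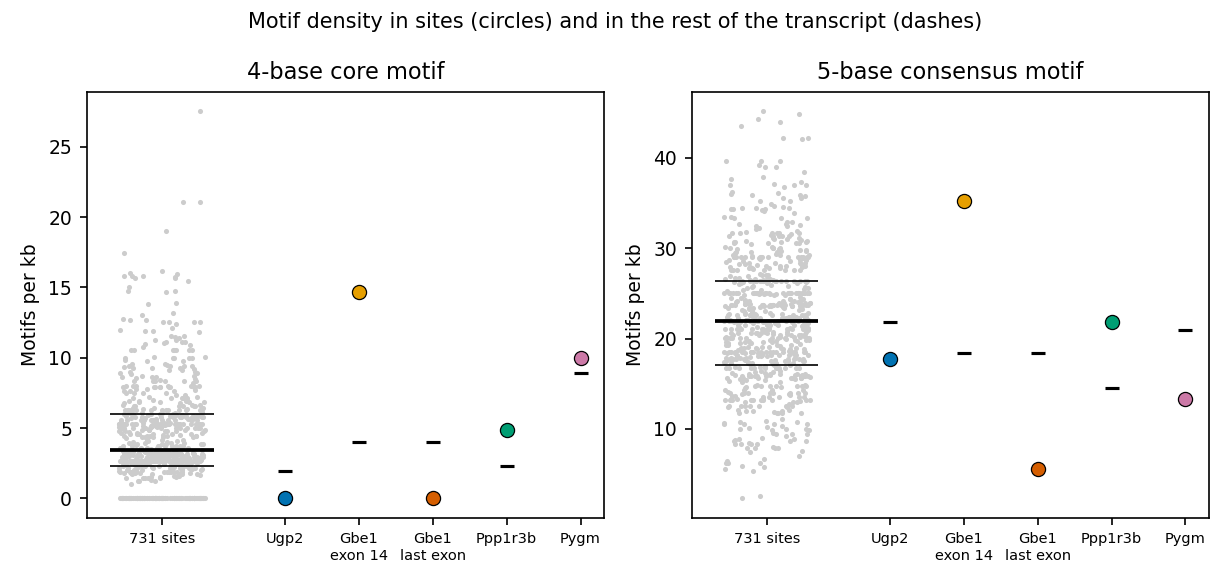
GGAC (left, 4-base core motif) and DRACH (right, 5-base consensus) per kb in 731 sites (grey points, with lines at the quartiles and the median) and in each glycogen gene site (circles), with short dashes for the rest of the same transcript. The Gbe1 exon 14 site lies at 14.7 and 35.2 per kb and the Gbe1 last exon site at 0 and 5.57 per kb.

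No site in the lists was shorter than 300 bp, so the exon lengths of the members are set beside their sites. Ugp2 and Ppp1r3b each had 1 exon of 300 bp or more, the last, and it carried the site. In Ugp2, exon 6 with 298 bp and exon 1 with 291 bp were just under that length. Pygm had 2 such exons of 20, exon 1 with 323 bp and a site, and exon 20 with 415 bp and no site. On Gbe1-203, exon 16 with 728 bp carried a site and exon 1 with 347 bp did not, and the exon 14 site was long enough only with the bases beyond its 131 bp exon. Smaller or shorter changes elsewhere on these transcripts were outside the reach of the lists.

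**Figure D4:**
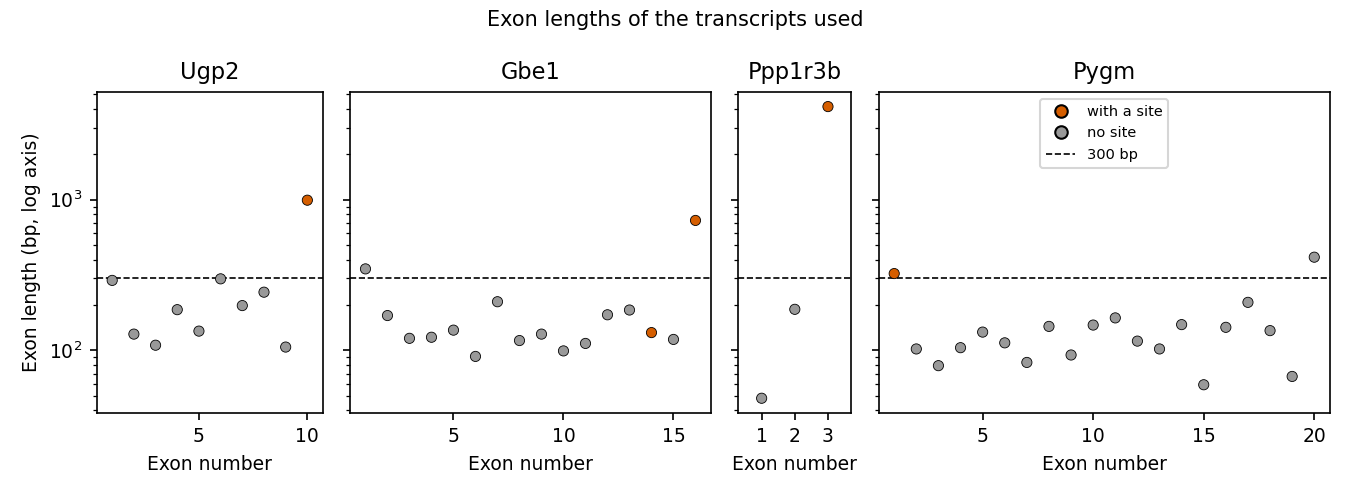
Length of every exon (log axis, bp) on the transcript used for each glycogen gene, with exons that carry a site higher in cold in orange, other exons in grey and the 300 bp minimum of the lists as a dashed line. Exon 14 of Gbe1, at 131 bp, is the only orange exon under the line.

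The other genes of glycogen metabolism were taken from lists of 32 symbols, members included. Of these, 4 had a site, the members, with a median strongest fold of 20.4, beside 12.8 over all genes with higher sites only. Gbe1 at 32.2 and Pygm at 136 lay above 12.8, and Ugp2 at 4.85 and Ppp1r3b at 8.67 lay below it. Over all 22500 genes with a coding transcript in GENCODE M21, expressed in fat or not, 553 (2.46%) had a site, and over the 20289 with an exon of 300 bp or more, 547 (2.70%) had one. Since the members were chosen for having a site, with its fold known, nothing is read from their share or their median fold. In synthesis this was 2 of 7 genes, and Gys1, Gys2, Gyg, Pgm1 and Pgm2 had no site. Among the phosphatase subunits and related glycogen proteins it was Ppp1r3b of 13, so that the targeting subunits Ppp1r3a, Ppp1r3c, Ppp1r3d, Ppp1r3e, Ppp1r3f and Ppp1r3g had none. In breakdown it was Pygm of 10, and the lysosomal glucosidase Gaa and the phosphorylase kinase genes had none. The glycogen synthase kinases Gsk3a and Gsk3b and 6 other genes that use UDP-glucose had none. Of the 32 genes, 31 had an exon of 300 bp or more, the exception being Ppp1cc with 294 bp. No gene of the 32 had a site lower in cold. Among all 574 genes with a site, 351 had lower sites only and 16 had sites of both kinds. Nothing is read from this absence, since the 4 genes with a site were chosen with their directions known. An empty entry says only that no site passed the thresholds of the lists, not that the transcript was unmethylated or unchanged.

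Pygm is known as the phosphorylase of skeletal muscle, so muscle genes are set beside it. The muscle and adipocyte marker lists were chosen with earlier results of these data known. Nothing is therefore read from their shares or directions. Of 23 muscle markers, 16 had an exon of 300 bp or more, and 7 of these had sites, beside the 2.70% of all such genes, expressed in fat or not. All 7 were higher in cold, with strongest folds of 8.19 to 169 and a median of 14.6. Of all 574 genes with a site, 36.1% had higher sites only. The largest were the giant sarcomere proteins Neb at 169 and Ttn at 123, followed by the calcium pump Atp2a1 at 16.8, and Ttn alone held 28 of the 35 muscle sites. Of the 16 markers without a site, 7 had no exon of 300 bp, while others such as skeletal actin Acta1 and muscle creatine kinase Ckm had one, of 384 bp and 1634 bp. The Pygm fold of 136 stood between those of Neb and Ttn. Only the Atp2a1 site, of these 35, lay on a start codon as the Pygm site did. Of 11 markers of brown and beige adipocytes, 8 had an exon of 300 bp or more, and 6 of these had sites, all higher in cold, with strongest folds of 9.29 to 1138. Otop1 at 1138, Dio2 at 568 and the uncoupling protein Ucp1 at 204 were the largest. Of 7 white adipocyte genes 1 had a site, the hormone gene Lep, lower in cold with a fold of 4.96. Lower sites only were the more frequent class in the lists, with 351 of the 574 genes. The part that muscle tissue or beige adipocytes in the sampled fat pad had in the Pygm, Ugp2, Gbe1 and Ppp1r3b folds was not tested.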

How the data were processed

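MeRIP-seq of iWAT was compared between cold and thermoneutral mice, with groups taken from the sample titles, and the initials C and T in the table names were taken to stand for cold and thermoneutral. Per the study's methods, cutadapt trimmed the reads, Hisat2 placed them on mm10, MACS2 found peaks and diffReps found differential sites. Processing notes of the submitters list HOMER, MACS2 and Bowtie 0.12.2, with mm8 beside mm10. Of 731 sites whose gene was found in GENCODE M21, 99.6% overlapped it on GRCm38. The authors deposited, per site, a fold (the linear ratio of the group with more signal to that with less), a p-value and FDR, the −log10 of the p-value as a score, and positions and length in bp. These columns are the authors' own comparison and were used as deposited, with no test, SD or n added. They hold no library values, so no depth is known.

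Members and gene lists were chosen with earlier results of these data known. Named genes were the 4 members, list genes with a site (muscle and beige lists by their largest folds and counts) and the genes next in fold to each member. Starts were read as counted from 0 and printed from 1. Sites were placed on the coding transcript with the longest coding sequence in GENCODE M21, and motifs were counted on the RefSeq GRCm38 genome, with Python 3.11.15, numpy 2.4.6, pandas 2.3.3, pysam 0.24.0 and matplotlib 3.10.9. The placing and counting functions were tested on simulated data.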

Additional observations from a re-analysis of the deposited data

How the results depend on the processing

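The alternatives gave 44 values over 21 results, of which 17 were exactly the reported value, 21 changed by no more than 1.5 times (1 percentage point for the share of a site in the 3′ UTR), 6 moved further and 0 reversed a direction. No alternative derived the direction of a site anew, so the absence of reversals says nothing about how firm the directions are. Some values could not change, such as a count of 0 lower sites under stricter thresholds, or the weakest site of a gene with a single site. The fold of Gbe1 was 15.3 from its weakest site, against 32.2 from its strongest. Without folds written with at most 1 decimal place, the Pygm fold stood in the top 4.91% of higher sites, against 14.6% with them, since 36 higher sites were then left out. The longest coding transcript of Gbe1, counted in bases, is Gbe1-207. On it 47.2% of the exon 14 site was 3′ UTR, against 0 on Gbe1-203, and 0 of the last exon site was, against 98.9%. The transcript named in the authors' list, an alternative added after the data were seen, also gave 47.2% for the exon 14 site. Counting DRACH in place of GGAC gave 87 motifs in the 5 sites, against 21. No paired analysis was possible because the tables hold no value of a single library, and for the same reason no replicate could be left out and no normalization changed. Depth is unknown, and sites with a fold under 4.01 or a length under 300 bp were outside the tables.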

Other observations

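The gene annotation inside the deposited tables was read after the values of the members were seen. Genes with a glycogen term there numbered 4, all higher in cold, namely Gbe1, Ppp1r3b, Pygm and Acadm, the medium-chain acyl-CoA dehydrogenase of fatty acid oxidation, which had a fold of 6.68. Acadm was the only one of these that was not a member. Ugp2 carried no glycogen term. The starch and sucrose pathway entry of the same annotation held Gbe1, Pygm and Ugp2 beside the glycolytic enzymes Gpi1 at 7.58 and Hk2 at 4.41, all higher in cold. The glucuronosyltransferase gene Ugt1a6a, which uses a sugar nucleotide made from UDP-glucose, was the only gene of that entry listed as lower, with 2 sites and a largest fold of 10.8. Of all 574 genes with a site, 36.1% had higher sites only. The members were picked with their directions known, so nothing is read from either count.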
